A study of Arabidopsis thaliana with 17 samples.

Results

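PLETHORA and root hair regulators are 9 transcription factor genes of Arabidopsis thaliana that are best known from the root: PLT1 (AT3G20840), PLT2 (AT1G51190), PLT3 (AT5G10510) and BBM (AT5G17430), and RHD6 (AT1G66470), RSL1 (AT5G37800), RSL2 (AT4G33880), AT2G14760 and RSL4 (AT1G27740). AT2G14760 stands in the member list as RSL3, a name the annotation used here does not give, so it is called by its locus tag. The 9 genes were listed by name, with no threshold on a measured value but with earlier results of these data known, out of 27444 nuclear protein-coding genes, and were read at their TAIR10 gene bodies and 1 kb flanks. Cover by H3K27me3 domains was taken from 5 domain lists, and allele-assigned reads from the 4 columns of a table of counts in 150 bp bins.

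The study profiled histone H3 and H3K27me3 by CUT&RUN, in which a nuclease tethered to an antibody cuts out the chromatin that the antibody has bound. Endosperm nuclei of 6N content were sorted from seeds 4 days after pollination of Col mothers by Ler fathers, and were used either unfixed or after 8 min in formaldehyde, with 2 H3K27me3 and 2 H3 libraries for each treatment. Leaf nuclei (2N, 4N and 8N) came from Col plants 3 weeks old, with 1 library for each antibody. The labels do not say that libraries of the same treatment came from separate plants, so their spread may be technical, and no member's transcript was measured.

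H3K27me3 is placed on histone H3 by Polycomb repressive complex 2 and is a mark of genes held silent outside the tissue or stage that uses them. PLETHORA proteins are transcription factors with paired AP2 domains that act in a dose-dependent way to set up the root stem cell niche and keep the meristem dividing. RHD6 and the RSL genes encode basic helix-loop-helix factors of the root epidermis: the class I proteins RHD6 and RSL1 start root hairs, and the class II proteins RSL2 and RSL4 act after them in hair growth. Neither endosperm nor leaf blade forms a root meristem or root hairs.

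The lists held between 5878 domains (leaf) and 8403 domains (unfixed replicate 2), with a median width of 1800 to 2250 bp in 4 lists and 1200 bp in unfixed replicate 2. That list stood apart: its domains covered 12.7 Mb, against 19.8 to 21.3 Mb in the other 4, so counts of members across the endosperm lists are also given without it. The count table held 12189039 H3K27me3 reads and 7638577 H3 reads, and the depth of single libraries is not known from the files. Among genes used to check the tissues, the imprinted endosperm gene PHE1 was fully covered in all 5 lists, and AGL62, a gene of the dividing endosperm nuclei, had no cover in any. ZOU, a regulator of endosperm breakdown, had no cover in the endosperm lists and 69.5% in leaf. The seed coat gene TT10 was covered over 78.1, 81.7, 81.7 and 42.2% in the endosperm lists, TT8 over 41.8, 7.97, 16.2 and 0%, and BAN, TT12 and AHA10 had no endosperm cover. The part of other nuclei in the results was not tested.

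Most of the 9 genes lay under H3K27me3 domains in both tissues. A gene was called marked where domains covered at least 50% of its body. In leaf all 9 members were marked, against 20.3% of all genes. In the endosperm lists 7 members were marked in fixed replicate 1, 8 in fixed replicate 2, 7 in unfixed replicate 1 and 8 in unfixed replicate 2, where 20.4, 20.2, 21.6 and 16.0% of all genes were. The 7 members marked in all 4 endosperm lists, against 11.9% of genes, were PLT1, PLT2, BBM, RHD6, RSL1, RSL2 and RSL4. The same 7 were marked in the other 3 endosperm lists when unfixed replicate 2 was left out, and all 7 were also marked in leaf, a state shared by 9.58% of genes. No member was marked in leaf alone, as 2.94% of genes were; without unfixed replicate 2 this held for 1 member, PLT3, and 3.29% of genes. At a stricter 80% of the body in all 5 lists, 6 members and 5.52% of genes passed, and 7 members and 8.39% of genes without unfixed replicate 2. PLT3 and AT2G14760 were the exceptions, and both lay close to the 50% threshold in several lists. In such a mix of nuclei, fewer marked nuclei and less mark in each nucleus cannot be told apart.

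**Figure D1:**
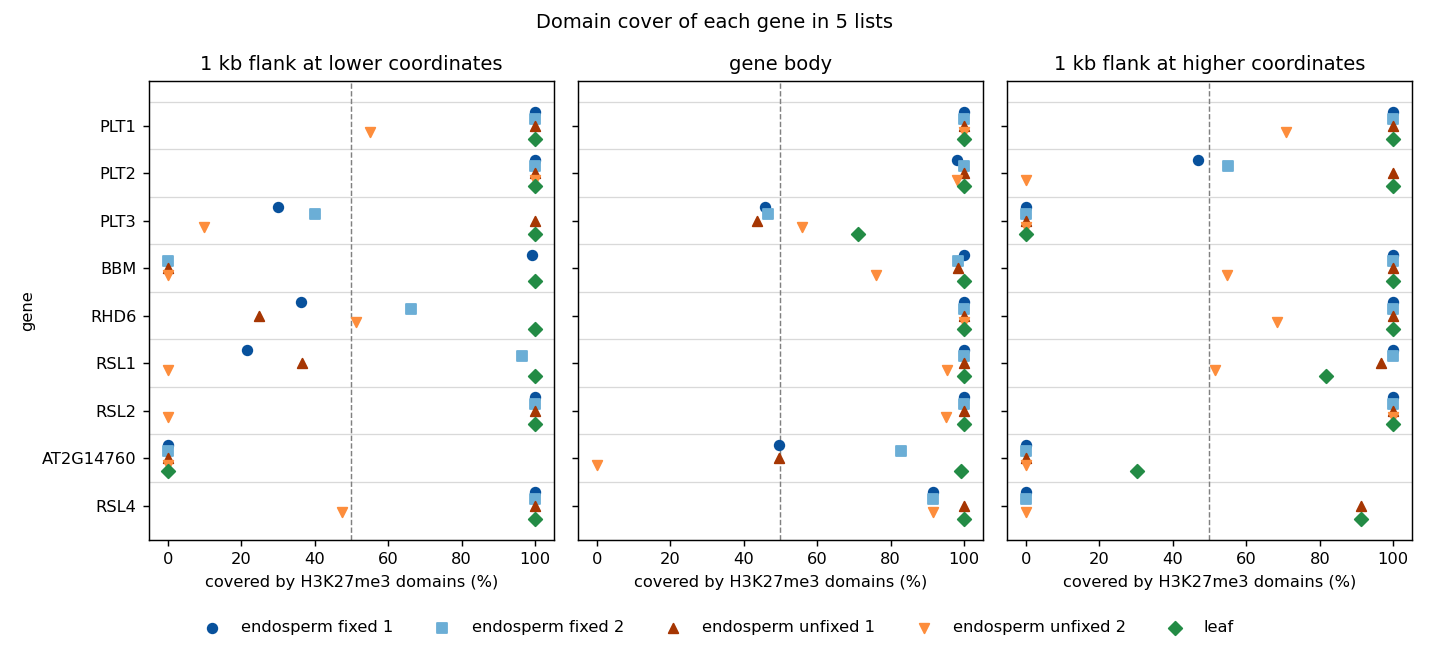
Percent of each gene's lower-coordinate flank, body and higher-coordinate flank (1 kb flanks) covered by H3K27me3 domains in the 4 endosperm lists and the leaf list, 1 symbol per list; the dashed line marks 50%. Bodies of 7 genes sit at or above 76.0% in every list, while PLT3 and AT2G14760 spread around 50% in endosperm.

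Among the PLETHORA genes, PLT1 and PLT2, which act together at the top of the root stem cell programme, had the highest mean endosperm cover of the 4. PLT1 was covered over 100% of its body in all 5 lists. PLT2 was covered over 98.0, 100, 100 and 98.0% in fixed replicates 1 and 2 and unfixed replicates 1 and 2, a mean of 99.0% ± 1.14 (SD, n = 4), and over 100% in leaf. BBM, which can start embryos from vegetative tissue when expressed out of place, was covered over 100, 98.3, 98.3 and 76.0% in the same order, a mean of 93.1% ± 11.5 (SD, n = 4), and over 100% in leaf. The low value of BBM was that of unfixed replicate 2, without which the means of BBM and PLT2 were 98.8 and 99.3%. PLT3, which shares the root functions of PLT1 and PLT2, was covered over 45.7, 46.7, 43.7 and 55.9% of its body in the endosperm lists and over 71.1% in leaf. Its endosperm mean was 48.0% ± 5.40 (SD, n = 4), and the leaf value lay above all 4 endosperm values. PLT3 was the PLETHORA gene with the least cover in each of the 5 lists.

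Among the root hair genes, RHD6, the initiator of root hairs, was covered over 100% of its body in all 5 lists. RSL1, its closest partner, was covered over 100% in 4 lists and over 95.3% in unfixed replicate 2, an endosperm mean of 98.8% ± 2.34 (SD, n = 4). RSL2 was likewise covered over 100% in 4 lists and over 95.1% in unfixed replicate 2, a mean of 98.8% ± 2.43 (SD, n = 4). RSL4, whose amount sets how long a hair grows, was covered over 91.4, 91.4, 100 and 91.4% in the endosperm lists and over 100% in leaf, an endosperm mean of 93.5% ± 4.30 (SD, n = 4). These 4 genes differed from each other by less than 10 percentage points in any list.

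AT2G14760 varied most. Domains covered 49.7, 82.8, 49.7 and 0% of its body in fixed replicates 1 and 2 and unfixed replicates 1 and 2, and 99.2% in leaf. The endosperm mean was 45.6% ± 34.2 (SD, n = 4), or 60.7% ± 19.1 (SD, n = 3) without unfixed replicate 2, in which the gene met no domain. Its domains were narrow as well, at 900, 1500 and 900 bp in the 3 endosperm lists that had one and 2100 bp in leaf.

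Leaf body cover lay above all 4 endosperm values for 2 members, PLT3 and AT2G14760, of 9, where 21.8% of the genes with cover in a list did so. With the flanks included, the leaf value was above all 4 for PLT3, BBM, RHD6 and AT2G14760, that is 4 of 9 against 32.1% of genes. Without unfixed replicate 2 the counts were again 2 and 4 of 9, against 24.8% and 35.3% of genes. Cover cannot exceed 100%, and each member other than PLT3 and AT2G14760 reached 100% of its body in at least 1 endosperm list. Leaf body cover could therefore not lie above all 4 for those members, and both members that could do so did. The same cap held for PLT1, PLT2 and RSL2 with flanks. The shares of genes are thus no fair measure of these counts, and with 1 leaf library no test of the tissues is possible. The flanks carried most of the spread. RHD6's lower-coordinate flank was covered over 36.3, 66.3, 25.0 and 51.3% in endosperm and 100% in leaf, and BBM's over 99.2, 0, 0 and 0% in endosperm and 100% in leaf. PLT3's higher-coordinate flank was the only flank with no cover in any list apart from the lower-coordinate flank of AT2G14760. The annotation used here gives no strand, so a flank is not called a promoter.

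Domains over most members were wider in leaf than in endosperm. The widest domain on the body was wider in leaf than in all 4 endosperm lists for 8 of 9 members, against 38.3% of genes with cover in a list. RSL1 was the exception, at 4200 bp in leaf and 4350 bp in fixed replicate 2. Without unfixed replicate 2 the count was again 8, against 41.5% of genes. Both shares include genes with no domain in leaf, which cannot be counted, while every member had a leaf domain. The share among genes with a leaf domain was not taken. The PLT1 domain measured 13200 and 15450 bp in the fixed lists, 13650 and 4350 bp in the unfixed lists, and 18900 bp in leaf (chr3:7286401-7305300). That leaf domain was wider than 99.1% of leaf domains and also took in at least 50% of the neighbouring gene AT3G20850. Over RHD6 the domain measured 4500 and 12750 bp in the fixed lists, 12150 and 3000 bp in the unfixed lists, and 19050 bp in leaf (chr1:24792301-24811350), where it also covered AT1G66480 and AT1G66490. The domain over PLT3 went from 1350 to 3450 bp in endosperm to 12000 bp in leaf (chr5:3306901-3318900), with no overlap between the tissues. In every list the PLT3 domains stopped inside the gene, and the higher-coordinate end of the body stayed free.

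**Figure D2:**
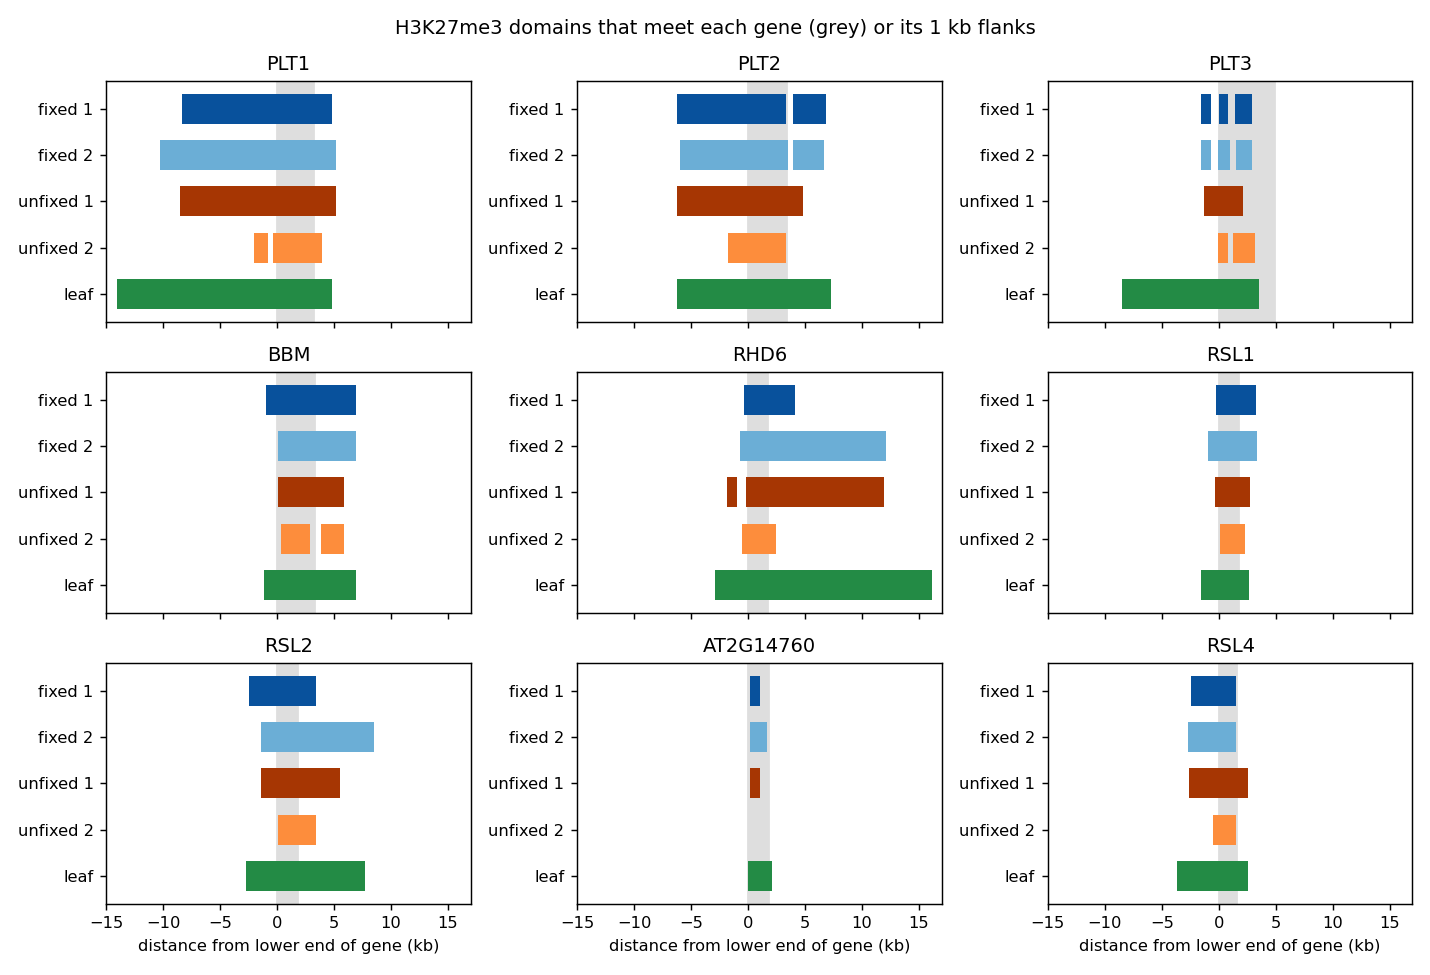
Domains that meet each gene body (grey) or its 1 kb flanks in each of the 5 lists, drawn by distance in kb from the gene's lower-coordinate end. Leaf domains (bottom bar) reach farthest over PLT1 at 18900 bp and RHD6 at 19050 bp, and AT2G14760 has no domain in unfixed replicate 2.

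PLT2 lay under domains of 9600, 9450, 11100 and 5100 bp in endosperm and 13500 bp in leaf (chr1:18970951-18984450). The lower-coordinate edge of that domain fell at the same position, 18970951, in fixed replicate 1, unfixed replicate 1 and leaf. All domain edges lie on a grid of 150 bp, so a shared edge means the same step of that grid. BBM's domains measured 7950, 6900, 5850 and 2550 bp in endosperm and 8100 bp in leaf (chr5:5741251-5749350), with the same higher-coordinate edge in both fixed lists and in leaf. RSL2's measured 5850, 9900, 6900 and 3300 bp in endosperm and 10500 bp in leaf (chr4:16236601-16247100), and RSL4's 3900, 4200, 5100 and 1950 bp in endosperm and 6150 bp in leaf (chr1:9650851-9657000). For 7 of 9 members, PLT1 and RHD6 being the exceptions, no domain on the body covered 50% or more of any other protein-coding gene in any list. Of the 8 members with a domain in all 4 endosperm lists, 7 had the narrowest in unfixed replicate 2, PLT3 being the exception, against 76.6% of genes with a domain in all 4. In the same list the cover of body and flanks was below that of the other 3 endosperm lists for 8 of 9 members. PLT3 was again the exception. Of genes with cover in a list, 35.5% were below in this way. Body cover was below it for 4 of 9 members, against 26.4% of such genes. Both shares include genes with no cover in another endosperm list, which cannot be counted.

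The authors' enrichment values, a log2 value for each domain that can be ranked only within a list, placed the members at different heights. In leaf the domain over PLT2 stood at 2.48 and that over PLT1 at 2.40, above 99.0% and 98.0% of leaf domains. The leaf domain over AT2G14760 stood at 1.36, above 41.2% of leaf domains. RSL1's leaf domain stood at 1.81, above 75.3% of the list, and PLT3's at 1.94, above 82.9%. In fixed replicate 1 the PLT2 domain ranked above 97.3% of domains, and the higher-coordinate of the PLT3 body domains above 56.2%. These ranks changed with the list. PLT2 ranked above 93.7% in fixed replicate 2, 81.1% in unfixed replicate 1 and 80.5% in unfixed replicate 2. In unfixed replicate 2 the lower-coordinate PLT3 body domain ranked above 89.0%, and the other above 28.2%. RSL1's domain ranked above 35.9% in fixed replicate 1 and 91.8% in unfixed replicate 2.

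Fixed and unfixed nuclei could hardly be compared in body cover, since several members were covered whole in most lists and tied values cannot separate. No member had both fixed lists above both unfixed lists or both below, where 11.3% and 6.44% of the genes with endosperm cover did. The two-sided exact permutation test of 2 lists against 2 gave p of 0.667 or 1 for every member, and the smallest p this design can give is 0.333, so a difference between the treatments could not have passed the threshold. The widest difference was that of AT2G14760, at 66.3% in the fixed and 24.8% in the unfixed lists, a difference of 41.4 percentage points (n = 2 in each group) that rested on the empty unfixed replicate 2. With flanks, RHD6 was higher in both fixed lists (mean 87.2% against 79.6%, exact permutation p = 0.333) and PLT3 lower in both (37.9% against 43.3%, exact permutation p = 0.333).

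The pooled endosperm reads gave a ratio whose value does not use the domain calls. Which libraries were pooled is not known, and the domains may have been called from the same ones. The 2 measures may therefore not be independent. Reads of both parents in the bins of each body were compared as log2 of H3K27me3 over H3, scaled to the column totals, with 0.5 added to each count. The columns pool libraries and carry no replicate, so the error is a counting SE widened 2.03 times for the uneven spread of reads along unmarked genes, and it covers no variation between libraries. A gene was called above when it reached 2-fold with a 95% interval that did not reach 0. Of 8 members with reads, 6 were called above, against 9.08% of 22713 genes tested, and none below, against 10.0%. Among genes marked in all 4 endosperm lists, 59.5% of 2800 were called above.

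RSL4 stood highest, at 2.02 ± 0.66 (SE) from 145 H3K27me3 and 22 H3 reads. RSL1 followed at 1.75 ± 0.62 from 142 and 26 reads, and RSL2 at 1.73 ± 0.23 from 1055 and 199 reads. The level of RSL2, with the most reads of any member, is the most firmly measured of these 3. PLT1 lay at 1.68 ± 0.26 from 759 and 148 reads, RHD6 at 1.53 ± 0.35 from 385 and 83 reads, and BBM at 1.16 ± 0.30 from 439 and 123 reads. PLT3, at 0.67 ± 0.23 from 576 and 226 reads, and AT2G14760, at 0.44 ± 0.31 from 286 and 132 reads, were not called. The 2 members with the least domain cover therefore also had the lowest read ratios. The median was -0.53 in genes marked in no list, -0.28 in all genes tested and 1.16 in genes marked in all 4 endosperm lists.

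**Figure D3:**
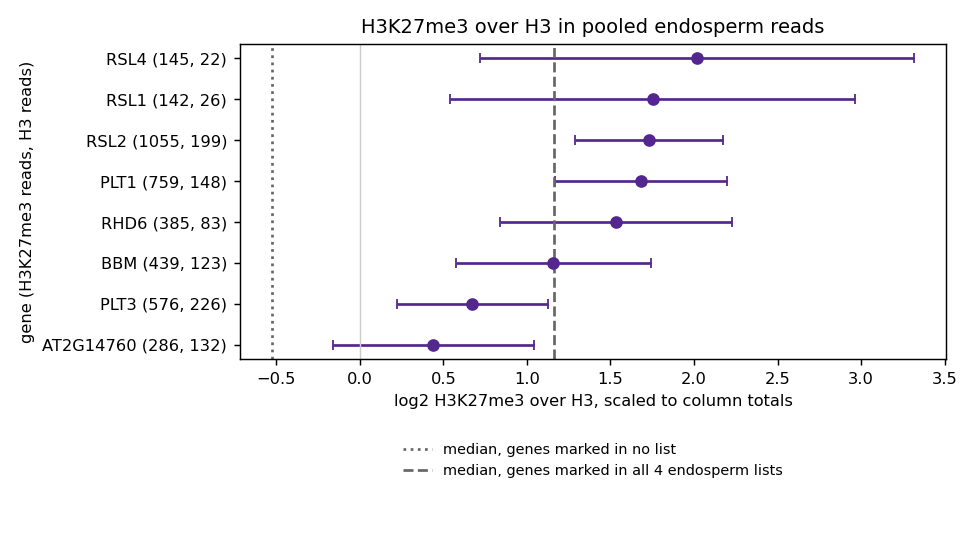
Log2 of H3K27me3 over H3 reads in the pooled endosperm columns for the 8 members with reads; points are gene bodies, bars are 95% intervals from the widened SE, and numbers in brackets are H3K27me3 and H3 reads. All points lie above the median of unmarked genes (-0.53), with RSL4 at 2.02 and AT2G14760 at 0.44.

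No neighbouring pair in this order differed beyond its error: the largest step, from BBM to PLT3, was 0.48 on the log2 scale with a 95% interval of -0.25 to 1.22. Some pairs farther apart differed beyond this error. PLT1 exceeded PLT3 by 1.01 (0.32 to 1.69), RSL2 exceeded AT2G14760 by 1.29 (0.54 to 2.04), and RSL4 exceeded AT2G14760 by 1.58 (0.15 to 3.01), the intervals being 95%. The last pair is the highest and lowest of the order, and RSL4 rests on 22 H3 reads. With flanks included, RSL4 stood at 0.78 ± 0.24 and AT2G14760 at 0.41 ± 0.23 (SE), values whose errors overlap. RHD6 and RSL1 differed by -0.22 with an interval of -1.62 to 1.18, and RSL2 and RSL4 by -0.29 with an interval of -1.66 to 1.08, so gaps of over 2-fold in either direction remained possible. With the values centred on unmarked genes in place of the column totals, PLT3 was called as well, at 1.20, and with flanks included BBM (0.95) and RSL4 (0.78) no longer were.

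PLT2 could not be measured in this way: none of its 23 bins, and no bin of its flanks, held a read of either antibody or parent, although the domain lists covered it nearly whole. The same gap lay over the higher-coordinate side of BBM, where 11 bins held no read, and over the lower-coordinate side of RSL1, where 6 bins held none. The read values of BBM and RSL1 thus describe only the other side of each gene, and that of RSL1 rests on 4 of its 12 bins. Reads were also uneven in AT2G14760, with 284 H3K27me3 and 130 H3 reads on the lower-coordinate side and 2 and 2 on the other, and in RHD6, with 19 and 0 on the lower-coordinate side and 366 and 83 on the other, so their ratios rest on 1 side as well. A gap in allele-assigned reads is no measure of the mark.

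Along the genes, the read ratio fell from the lower-coordinate to the higher-coordinate flank in PLT3. From its lower-coordinate flank through the lower and higher sides of the body to the higher-coordinate flank, log2 H3K27me3 over H3 was 1.21 ± 0.35, 0.92 ± 0.33, 0.41 ± 0.32 and -0.53 ± 0.53 (SE). The last value is that of the flank with no domain in any list. The first is that of a flank covered over 30, 40, 100 and 10% in the endosperm lists. These stretches are too coarse to place the reads against the domain edges. In RSL4 the ratio was 1.17 ± 0.57, 2.25 ± 0.79, 1.25 ± 1.20 and 0.28 ± 0.30 in the same order, and its higher-coordinate flank had no cover in 3 of the 4 endosperm lists. RSL2 ran the other way, from 0.96 ± 0.31 in the lower-coordinate flank to 1.62 ± 0.35, 1.80 ± 0.29 and 2.15 ± 0.30 in the higher-coordinate flank. PLT1 was at 1.75 ± 0.59, 2.20 ± 0.37, 0.96 ± 0.38 and 1.30 ± 0.50.

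The cross of Col by Ler lets the mark be read by parent. Endosperm carries more maternal than paternal genomes, and the table held 90.4% Col reads in H3K27me3 and 81.2% in H3. The part of genome dosage in these shares was not tested. For each gene, a parental ratio was taken as the log2 Col over Ler value in H3K27me3 less that in H3, centred on genes marked in no list, whose median before centring was 0.91. Its error is a counting SE widened 1.63 times. Of the 6 members with enough reads none was called toward either parent, where calls toward Col took in 7.82% of 17982 genes and calls toward Ler 2.82%. The widened SE of the members ran from 0.47 for PLT3 to 0.82 for RHD6. At these errors a ratio of exactly 2-fold could have been called for PLT3 only. The absence of calls therefore does not show an equal mark on both parents. Among genes marked in all 4 endosperm lists, the median was 0.94 and 34.3% of 2137 were called toward Col.

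BBM had 4.21 H3K27me3 reads for each H3 read on Col and 0.917 on Ler, and RHD6 had 5.52 and 1.24. Genes marked in no list, summed, had 1.25 on Col and 0.670 on Ler. The centred ratio was 1.28 ± 0.73 (SE) for BBM and 1.25 ± 0.82 for RHD6, and both 95% intervals reached below 0. These rest on 22 and 21 Ler reads in H3K27me3 and 24 and 17 in H3, so a 2-fold parental difference was not detectable at this depth. PLT3 gave 0.65 ± 0.47, AT2G14760 0.64 ± 0.74 and PLT1 0.47 ± 0.58. PLT1 had 5.80 H3K27me3 reads for each H3 read on Col and 2.25 on Ler, each above the value of unmarked genes for that parent.

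RSL2 differed in sign. It had 5.60 H3K27me3 reads for each H3 read on Col and 3.50 on Ler, the highest Ler value of the 6 members, and a centred ratio of -0.22 ± 0.54 with a 95% interval of -1.27 to 0.83. Without centring, the RSL2 ratio was 0.69 and the other 5 members, but not RSL2, were called toward Col, as were 6498 of 17982 genes. With the overall Col to Ler ratio of each antibody removed in place of the median of unmarked genes, no member was called. Across all genes the share of calls that pointed toward Col was 73.5% in the centred form, 99.8% without centring and 47.5% with the overall ratios removed, so the direction of a parental ratio depends on this choice. RSL1, with no Ler read in H3, and RSL4, with 5, had too few reads for a ratio.

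**Figure D4:**
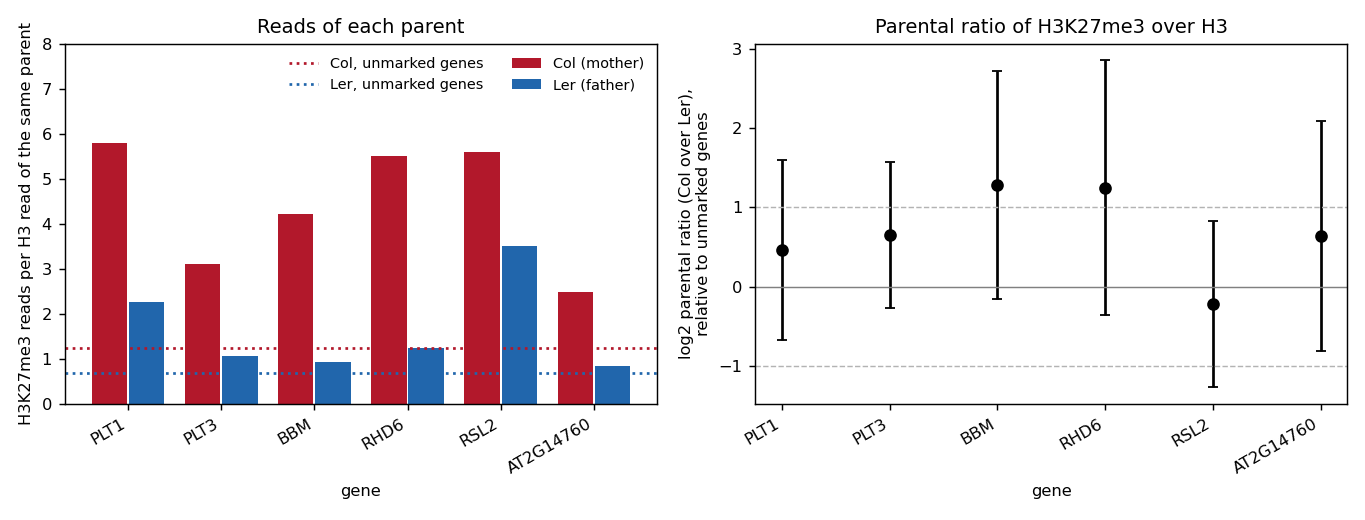
Left, H3K27me3 reads for each H3 read of the same parent in 6 member bodies, with dotted lines for genes marked in no list; right, centred log2 parental ratio with 95% intervals from the widened SE, dashed lines at 2-fold. Col bars run from 2.48 (AT2G14760) to 5.80 (PLT1), and all 6 intervals span 0.

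The members were set beside 43 other genes of the same programmes. Of these 43, 16 were marked in all 4 endosperm lists and 26 in leaf, against 11.9% and 20.3% of all genes. Another 10 were marked in no list, as were 18977 of all 27444 genes. Of the 43, 0 had the mark in every endosperm list but not in leaf, a state held by 2.31% of all genes. Without unfixed replicate 2 the first count was 21, against 15.4% of all genes. Of the 21, CPC and TRY were not marked in leaf, a state then held by 3.31% of all genes. On the read ratio, 13 of 38 were called above, against 9.08% of all genes tested. ACR4, a receptor kinase of the root cap and epidermis, was called below at -1.64 ± 0.32, as were 10.0% of all genes tested.

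The other AINTEGUMENTA and PLETHORA family genes were marked in 3 of 4 cases in all endosperm lists and in 4 of 4 in leaf. PLT5, a gene of lateral root and shoot organ positioning, and AT1G72570 were covered over 100% in all 5 lists, with read ratios of 1.79 ± 0.46 and 1.52 ± 0.30. ANT, a promoter of organ growth, was covered over 100, 80.8, 100 and 54.8% in endosperm and 70.4% in leaf. PLT7 had no cover in 3 endosperm lists, 15.1% in unfixed replicate 2 and 56.5% in leaf.

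Of the other root hair helix-loop-helix genes, 1 of 4, LRL2, was marked in all endosperm lists and 3 of 4 in leaf. Without unfixed replicate 2 the endosperm count was 2 of 4, with AT5G43175 added. AT5G43175 was covered over 80.8, 100, 100 and 0% in endosperm and 100% in leaf. LRL1 was covered over 61.9, 57.2, 43.2 and 80.6% in endosperm and 100% in leaf, and LRL3 had no cover anywhere. None of the 4 was called on the read ratio. Root hair growth genes, which act downstream of the RSL factors, were marked in 4 of 7 cases in all endosperm lists and in 5 of 7 in leaf. The expansin gene EXPA7 was covered over 97.5% ± 4.98 (SD, n = 4) in endosperm and EXPA18 over 85.6% ± 11.5, both 100% in leaf, with read ratios of 1.59 ± 0.34 and 1.04 ± 0.20. COW1, which encodes a phospholipid transfer protein, reached 2.27 ± 0.82, from only 111 H3K27me3 and 14 H3 reads. RHD4, a phosphatase gene of root hair tips, had no cover in any list.

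The genes that set which epidermal cells form hairs were marked in 2 of 10 cases (GL2 and MYB23) in all endosperm lists and in 3 of 10 in leaf. Without unfixed replicate 2 the endosperm count was 4 of 10, with CPC and TRY added. CPC, a small mobile MYB protein gene that promotes hair fate, was covered over 100% in 3 endosperm lists and 0% in unfixed replicate 2 and in leaf. TRY, a relative of CPC, was covered over 82.4, 63.6, 91.2 and 0% in endosperm and 0% in leaf. Its read ratio was 1.80 ± 0.90, from only 69 H3K27me3 and 12 H3 reads. WER, a MYB gene of non-hair cells, was covered over 87.8, 46.8, 94.3 and 0% in endosperm and 0% in leaf. EGL3 and SCM had no cover in any list.

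Of 13 stem cell niche and root cap genes, 6 were marked in all endosperm lists and 9 in leaf. Without unfixed replicate 2 the endosperm count was 7. WOX5, the homeobox gene of the quiescent centre, was covered over 93.8% ± 12.5 (SD, n = 4) in endosperm and 100% in leaf, with a read ratio of 1.14 ± 0.26. The root cap NAC gene BRN2 was covered over 100% in all 5 lists and had a read ratio of 2.13 ± 0.22. RGF1, which encodes a peptide that raises PLETHORA protein in the meristem, was covered over 100, 100, 100 and 58.7% in endosperm, whereas TPST, whose enzyme sulphates such peptides, had no cover and a ratio of -0.79 ± 0.14. SCR, a partner of SHR in the niche, had no cover either, while SHR was covered over 97.5% ± 4.92 (SD, n = 4) in endosperm and 100% in leaf. None of the 5 genes in the list of auxin exporters was marked in all endosperm lists, and 1, PIN2, was without unfixed replicate 2. PIN2, which carries auxin through the root epidermis, was covered over 77.7, 100, 84.1 and 47.3% in endosperm and 100% in leaf.

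**Figure D5:**
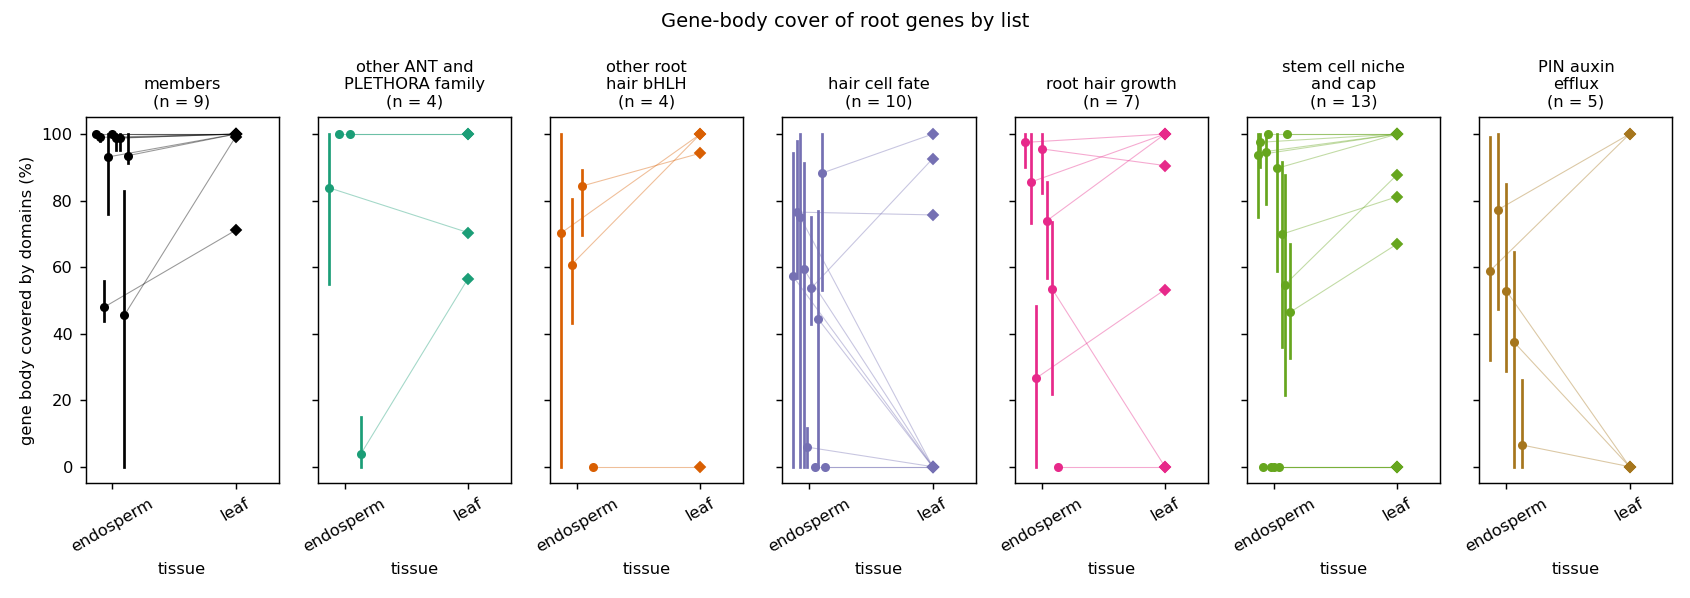
Percent of the gene body under H3K27me3 domains in endosperm (circle, mean of 4 lists; vertical line, lowest to highest list) and leaf (diamond, 1 list) for the members and 6 lists of related root genes, each gene joined by a line. The hair cell fate list has the most genes that reach 0% in leaf, while the members end at 71.1 to 100%.

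Likeness was measured as the mean absolute difference in cover over 15 values, the body and both flanks in 5 lists. The genes nearest to PLT1 were AT4G12543, at 0.053 percentage points, and AT2G47540, at 0.253. RSL2 was nearest to AT3G21000, at 0.012 percentage points, although their read ratios differed, 1.73 for RSL2 and 0.56 for AT3G21000. RHD6 was nearest to AT2G34820 (3.69 points) and to NF-YC5 (4.77 points), a gene for a subunit of a CCAAT-binding factor. BBM was nearest to AT2G38920 (4.41) and SK19 (5.75), and RSL4 to AT1G30730 (6.27) and to the seed storage albumin gene SESA4 (6.49). PLT2 was nearest to AT3G21980 (3.86) and AT2G37730 (4.30), RSL1 to AT3G24690 (3.00) and AT5G46874 (5.10), and AT2G14760 to AT5G08460 (3.09) and AT5G52330 (6.06). PLT3 had the most distant neighbours of the 9, AT3G60730 at 8.08 and AT4G22530 at 9.73 percentage points.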

How the data were processed

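Of 17 samples, 5 H3K27me3 libraries with a domain list (4 endosperm, 1 leaf) and 1 table of endosperm counts were used; IgG, seed coat and embryo samples were not analysed here. SICER, deepTools 2.0, Picard, Bowtie2, Trim Galore and the build TAIR10 appear, per the submitters' processing notes, with no step tied to a tool. The authors deposited broad H3K27me3 domains with a p-value or q-value (the sources do not say which; the highest is 0.049). The authors computed a log2 enrichment for each domain before deposit; its base was inferred from the numbers. The labels tie each file to the H3K27me3 and H3 libraries that share a number. The authors also deposited whole-number read counts in 150 bp bins, split by parent and with no normalization. Which libraries were pooled and how reads were assigned are not given in the sources used.

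The members and gene lists were chosen with earlier results of these data known. Genes came from the TAIR10.1 annotation (RefSeq), taken to share TAIR10 coordinates on nuclear chromosomes. Of 62 listed genes, 41 had leaf marking at the annotated position, and 12 and 10 when moved by 50000 bp either way. The annotation gives no strand, so flanks planned as upstream and downstream are given by coordinate. Genes are named by symbol or synonym; 3 are printed by locus tag. No sequence is printed.

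Cover was computed per list. A gene's bins are those with their midpoint in it. The read ratio needed 40 reads in all; the parental ratio needed 40 per antibody and 10 Ler reads in H3. Extra spread was estimated from the differing sides of 11111 and 6066 unmarked genes. A replicate-based count test was planned only if the columns carried replicates; they do not, so the ratios describe these pooled libraries. Scripts were tested on simulated data (Python 3.11.15, numpy 2.4.6, scipy 1.17.1). Named genes are all members, listed genes where their list is described, the 2 genes nearest each member in cover, and genes under a domain that covers a member. Alternatives were the cover threshold, flanks, the upper 75% of domains by enrichment, each list left out, the pseudocount, the read minimum, the scaling and any-overlap bins.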

Additional observations from a re-analysis of the deposited data

Results flagged for a closer look

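In 18 groups of 4 endosperm lists (body cover, and cover of body with flanks, for each of 9 members), 6 had a list far from the other 3. Chance flags about 1 in 20 such groups where values are free to vary. Here cover is capped at 100%, the other 3 lists were tied in 5 of the 6, and the groups of a gene share its body, so that rate does not apply as it stands. Unfixed replicate 2, the list with the narrowest domains, was the low list in 5 of these: 85.8% of the PLT1 body and flanks, 76.0% of the BBM body, 95.3% of the RSL1 body, 95.1% of the RSL2 body and 71.4% of the RSL2 body and flanks. In the sixth, unfixed replicate 1 was high at 100% of the RSL4 body, where the other 3 lists stood at 91.4%. The cover of body and flanks in unfixed replicate 2 was below the other 3 endosperm lists for 8 of 9 members, against 35.5% of genes with cover in a list. That share includes genes with no cover in another endosperm list, which cannot be counted. Of genes with a domain in all 4, 76.6% had the narrowest in unfixed replicate 2, against 7 of 8 members.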

How the results depend on the processing

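The count of 7 members marked in all endosperm lists stayed within 1.5 times under every alternative run. The count of members whose fixed and unfixed lists do not overlap was 0 and became 2 with flanks. It ranged from 1 to 5 when each list was left out (5 without unfixed replicate 1, which leaves 1 unfixed list). With the replicate block (the difference within same-numbered lists) it was 1. Same-numbered lists did not deviate together (correlation -0.03 across 10504 genes). That value cannot show whether same-numbered libraries were prepared together, and the labels do not say. The count of members called in the parental ratio was 0 and became 5 without centring, where the RSL2 ratio changed sign to 0.69. Over all genes the calls were 1407 toward Col and 507 toward Ler when centred, 6498 and 16 without centring, and 883 and 976 with overall ratios removed. For the read ratio the calls were 2062 above and 2274 below, and 4409 and 368 when centred on unmarked genes. Mean endosperm cover moved beyond its SD for 8 of 9 members with flanks, and under no other alternative. PLT2, with 0 allele-assigned reads, could not be measured in reads, and RSL1 (26 H3 reads) and RSL4 (22) have the widest intervals.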

Other observations

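Parental ratios outside the members were called toward Col for 4 of 30 other genes of the root programmes and toward Ler for 0. Of all genes tested, 7.82% were called toward Col and 2.82% toward Ler. The 4 were PLT5 (2.74 ± 0.97, SE, log2, centred), RGF1 (2.21 ± 1.11), BRN2 (1.88 ± 0.60) and JKD (1.77 ± 0.79), a zinc finger gene of the stem cell niche; with the overall ratio of each antibody removed, RGF1 was no longer called (1.99) and PRP3, a cell wall protein gene of root hairs, was called toward Ler (-1.14). Without centring 12 of the 30 were called toward Col.

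Among genes used to check the tissues, the Polycomb gene FIS2 was called toward Col at 1.07 ± 0.47, and not with the overall ratio of each antibody removed (0.85). BAN, a flavonoid enzyme gene of the seed coat, was called toward Ler at -1.16 ± 0.48, and without centring stood at -0.25 and was not called. MEA, a Polycomb gene with imprinted expression in endosperm, was covered over 67.1, 78.3, 78.3 and 60.4% in the endosperm lists and held no allele-assigned read.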
